A study of Mus musculus with 2 samples.

Results

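The genes described here are the protein-coding mouse genes named Zfp with a 3-digit number that starts with 1 to 6. In the RefSeq table of assembly GRCm38.p6 these were 190 of 21900 protein-coding genes. They were chosen by symbol alone, and 4 further genes of the same naming that are not protein-coding were left out. The study measured N4-acetylcytidine (ac4C), a cytidine that carries an acetyl group, in RNA of whole uteri taken from wild-type mice at gestational day 4, by sequencing RNA fragments pulled down with an antibody to ac4C (acRIP-seq). It had 1 immunoprecipitation library and 1 input library, both of polyA RNA, with strain and age not given in the sources used here. The comparison was available as 1 list of 21192 peaks, so no value below has a replicate check and no p-value was calculated. All 4 stromal markers, all 4 smooth muscle markers and 3 of the 4 epithelial markers examined held peaks. Other protein-coding genes of similar span stood at 27.9%, 32.2% and 30.1%. Ptprc and Hbb-bs, markers of blood cells, held none, against 26.0%. With 2 genes the Wilson interval reaches 65.8%, which holds that value. A peak is a measure of enrichment over background and not of transcript level, so these markers cannot check the labelled tissue.

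Zfp is a mouse naming series for zinc finger proteins, most of which carry tandem C2H2 fingers, short loops held by a zinc ion between cysteines and histidines that read DNA and sometimes RNA. Many mammalian members also carry a KRAB domain, which recruits the corepressor Trim28 (KAP1) and the histone methyltransferase Setdb1 to silence transposable elements. KRAB zinc finger genes often lie in tandem clusters, and in many zinc finger genes a single long exon encodes the whole finger array. The names mark an order of discovery and not a family tree, so the genes also include proteins of other kinds, such as Zfp185, a LIM domain protein of the actin cytoskeleton.

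Few promoter windows were touched by a peak. RefSeq promoter windows, from 250 bases before a start to 50 bases after it, were matched for 153 of the 190 genes. Of 186 windows, 6 were touched by a peak (3.23%), against 3.34% of the 21263 windows of all protein-coding genes. Most of each window lies before the start, so this share does not describe peaks further into the gene. The windows below are the 4 in which peaks covered all 50 bases after the start, and they are shown because they hold most of the peak-covered bases whose sequence could be read. They are RefSeq sequences of GRCm38.p6, 5′ to 3′ along the gene, with the bases covered by a peak in capitals. The first transcribed base follows 250 bases of upstream sequence in each window.

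Zfp523, chr17:28177168-28177467, plus strand: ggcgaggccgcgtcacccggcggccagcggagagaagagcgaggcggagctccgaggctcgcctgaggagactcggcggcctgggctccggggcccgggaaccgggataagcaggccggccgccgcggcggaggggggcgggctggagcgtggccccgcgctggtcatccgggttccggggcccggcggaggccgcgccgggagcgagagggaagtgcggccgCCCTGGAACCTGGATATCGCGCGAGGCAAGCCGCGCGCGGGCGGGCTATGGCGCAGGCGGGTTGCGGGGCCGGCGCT

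Zfp428, chr7:24506837-24507136, plus strand: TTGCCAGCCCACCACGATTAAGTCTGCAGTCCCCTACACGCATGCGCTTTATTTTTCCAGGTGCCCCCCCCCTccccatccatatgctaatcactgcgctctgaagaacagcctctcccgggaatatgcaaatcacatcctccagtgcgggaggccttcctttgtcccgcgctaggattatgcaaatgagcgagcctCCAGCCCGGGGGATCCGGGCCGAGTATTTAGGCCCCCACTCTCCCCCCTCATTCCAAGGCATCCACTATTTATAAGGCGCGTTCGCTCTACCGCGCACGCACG

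Zfp219, chr14:52019664-52019963, minus strand: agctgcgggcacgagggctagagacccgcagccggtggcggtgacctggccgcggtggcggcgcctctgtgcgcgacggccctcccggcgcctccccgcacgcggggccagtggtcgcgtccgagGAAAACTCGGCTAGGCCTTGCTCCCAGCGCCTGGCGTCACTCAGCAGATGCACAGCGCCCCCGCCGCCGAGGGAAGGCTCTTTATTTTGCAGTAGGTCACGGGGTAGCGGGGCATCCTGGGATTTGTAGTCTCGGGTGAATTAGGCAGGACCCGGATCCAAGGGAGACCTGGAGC

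Zfp467, chr6:48445041-48445340, minus strand: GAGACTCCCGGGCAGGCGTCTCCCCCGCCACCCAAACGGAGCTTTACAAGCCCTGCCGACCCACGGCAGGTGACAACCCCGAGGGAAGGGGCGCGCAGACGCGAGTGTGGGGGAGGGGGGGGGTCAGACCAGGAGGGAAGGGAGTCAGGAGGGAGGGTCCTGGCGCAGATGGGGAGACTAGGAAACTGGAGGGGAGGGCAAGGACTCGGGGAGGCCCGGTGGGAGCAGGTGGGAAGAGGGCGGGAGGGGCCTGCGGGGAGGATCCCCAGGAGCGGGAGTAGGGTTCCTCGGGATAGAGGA

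In Zfp523, a gene related to the promoter-binding activator Zfp143, the peak covered 77 bases of the window, 50 of them after the start, and its summit lay 130 bases downstream at 6.29-fold enrichment on 12 fragments. In Zfp428 separate peaks of 4.00-fold and 6.71-fold covered 176 bases, and cytidine made up 40.3% of the covered bases against 37% of the window. In Zfp219 the peak covered 175 bases at 5.19-fold, with 28% cytidine against 32% in the window, and its summit also lay in the gene Tmem253. In Zfp467 the peak covered the whole window and its summit lay upstream of this start, still within the gene span. Zfp579 and Zfp691 had a peak over 12 and 22 bases of their windows, all after the start. The peak of Zfp579 rested on 41 fragments and the others on 8 to 12.

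A peak was assigned to a gene when its summit lay in the gene span, introns included, and in no other protein-coding gene. On this rule 73 of the 190 genes held a peak (38.4%, 95% Wilson interval 31.8 to 45.5%), against 29.1% of all protein-coding genes. Other protein-coding genes, weighted to the same distribution of span over 10 classes, stood at 31.0%, below that interval. The interval held the value of other genes when summits in several genes were counted (38.9%, 32.3 to 46.0%, against 32.6%), under a width limit of 631 bp (33.2%, 26.9 to 40.1%, against 29.4%) and with a −log10 q of 10 or more (20%, 14.9 to 26.3%, against 17.5%). Over all Zfp numbers, given below, the share stood below that of other genes, with an interval that held their value. The 73 genes held 180 peaks, which covered 105 kb. Another 7 summits lay in 1 of these genes and in a second protein-coding gene. The list gave no strand to assign them, and 12 of the 180 summits were also inside a gene that is not protein-coding. Whether a missing peak reflects a transcript without ac4C or one of low abundance was not tested, and in whole uterus fewer cells of a type and less RNA per cell cannot be told apart.

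The gap from other genes of like span was not even along span. Among the 22 genes of up to 7.36 kb, 5 of 8 in the shorter class (62.5%, 95% interval 30.6 to 86.3%) and 8 of 14 in the longer (57.1%, 32.6 to 78.6%) held a peak, against 20.02% and 24.6% of other genes. Among the 13 genes longer than 108 kb, 11 held a peak (84.6%, 57.8 to 95.7%), against 46.6%. In between, from 7.36 to 57.1 kb, the shares were 25.8 to 35%, and in all 5 classes the interval held the value of other genes. Of the 7 genes from 57.1 to 108 kb, 4 held a peak. Median spans were 18.3 kb for genes with a peak and 17.4 kb for the 117 without one.

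**Figure D1:**
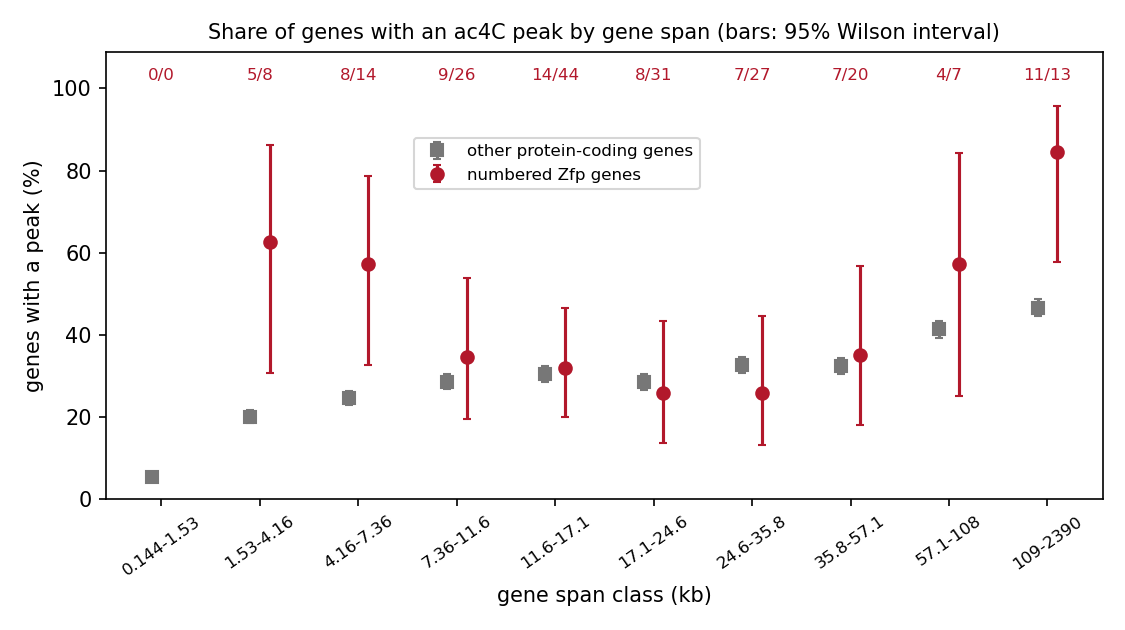
Share of genes with a peak (vertical axis, percent) in 10 classes of gene span (horizontal axis, kb), for numbered Zfp genes (circles, with genes holding a peak over genes in the class printed above) and other protein-coding genes (squares), with 95% Wilson intervals. The Zfp shares stand highest against other genes in the classes up to 7.36 kb and over 108 kb, and the shortest class held no Zfp gene.

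The number of peaks per gene was not higher than in other genes. A single peak was found in 25 of the 73 genes and 2 peaks in another 25 (34.2% each, 95% interval 24.4 to 45.7%), against 41.1% and 19.9% of other genes of like span with a peak. At least 3 peaks were held by 23 genes (31.5%, 22.0 to 42.9%), against 39.0%. The mean was 2.47 peaks, against 2.96, and the median was 2 in both. The most peaks, 10, lay in Zfp335 (NCBI gene 329559; chromosome 2), a subunit of histone H3K4 methyltransferase complexes. They were spread over its 20.7 kb from 8.31% to 91.5% of the span, at 4.22-fold to 10.4-fold on 9 to 41 fragments, with the highest near the middle. Zfp469 (chromosome 8), whose human counterpart is mutated in brittle cornea syndrome, held 8 peaks. Zfp516, a cofactor of brown fat genes, held 7, and Zfp362, Zfp395 and Zfp609 held 6 each. Zfp423, Zfp523, Zfp608 and Zfp687 held 5 each.

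Peaks in these genes were wider than in other genes of like span. The median over the 180 peaks was 370 bp (interquartile range 253 to 642 bp), against 320 bp in other genes of like span (231 to 483 bp). The difference was greatest among the widest peaks. Of the 180 peaks, 27 were at least 1000 bp wide (15.0%, 95% interval 10.5 to 20.9%), against 5.58%, and 11 were at least 1500 bp wide (6.11%, 3.45 to 10.6%), against 1.92%. At the narrow end 12 peaks (6.67%) had the smallest width of the list, 200 bp, against 7.87%. A peak of at least 1000 bp was found in 21 of the 73 genes (28.8%, 19.7 to 40.0%), against 13.7% of other genes of like span with a peak. The 27 wide peaks lay in these 21 genes, so the intervals over peaks, which take each peak as separate, are too narrow. A median width above that of other genes was not particular to this set. The median width of the highest peak was 380 bp here and 337 bp in other genes of like span. It was 382.5 bp in Zfp genes with 1 or 2 digits, 435 bp in Zfp700 to Zfp999, 477 bp in Zbtb and 947.5 bp in Zfhx genes. In Zscan and Zkscan genes it was 207 and 257 bp. These medians of other families rested on 8, 19, 25, 2, 3 and 3 genes with a peak, in the order given. The share of peaks of at least 1000 bp was not calculated for these families.

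The widest peak, 4637 bp, lay in Zfp469 at chr8:122266525-122271161 (GRCm38), at 14.9-fold enrichment (95% interval 10.5 to 20.6) on 35 fragments. It belonged to a run of 6 peaks with gaps of at most 549 bp that together covered 10.4 kb of an 11.8 kb stretch. Within that run the fold enrichment ranged from 2.91 to 14.9, so the signal was uneven along it. The next widest, 3096 bp, was the single peak of Zfp579 (NCBI gene 68490) at chr7:4992968-4996063, which covered 95.3% of the 3.25 kb gene span. Its fold enrichment was 14.8 (10.7 to 19.9) on 41 fragments. Zfp574 held a single peak of 2762 bp, which covered 35.3% of its span at 10.1-fold (7.28 to 13.6).

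Coverage of a large part of the gene was seen in other short genes. In 11 genes peaks covered over 20% of the span, all of them between 2.63 and 12.3 kb long. Peaks covered 50.5% of Zfp503, 41.4% of Zfp414, 40.8% of Zfp358, 39.9% of Zfp553 and 37.7% of Zfp319. Over all 73 genes the median covered share was 4.53% (interquartile range 1.51 to 13.6%), against 3.88% (1.31 to 10.6%) in other genes of like span. Exons were not told from introns here, so the exon that carries each wide peak was not identified.

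The background of the wide peaks was in the range of the others. The background in fragments, recovered from the deposited fold and p-value, had a median of 2.63 in the 27 wide peaks and 2.50 in the 153 narrower ones. In other genes it was 4.04 and 2.63. Between 1 and 2 background fragments 8 of 39 Zfp peaks were at least 1000 bp wide (20.5%, 95% interval 10.8 to 35.5%), against 3.37% of the peaks of other genes. Between 2 and 4 fragments 14 of 71 were (19.7%, 12.1 to 30.4%), against 5.84%. From 4 fragments upward 5 of 38 were (13.2%, 5.75 to 27.3%), against 7.82%, and below 1 fragment 0 of 32 were, which allows a share of up to 9.38% by a limit of 3 counts, or 10.7% by the Wilson interval, against 2.0%. The interval lay above the value of other genes in the classes from 1 to 4 background fragments and held it in the other classes. These intervals take each peak as separate, although the 27 wide peaks lay in 21 genes, so they are too narrow. No count by gene was made within the background classes.

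Median fold enrichment, unlike median width, was close to that of other genes. The median over the 180 peaks was 5.58 (interquartile range 4.37 to 7.40), against 5.57 (4.34 to 7.33) in other genes of like span. At each gene's highest peak the median was 6.69 (5.45 to 10.1), against 6.60 (5.05 to 9.04). Those highest peaks rested on a median of 21 fragments in both, over a background of 1.84 against 2.04 fragments. In genes with 1 peak the median was 5.60, against 5.25. At least 10-fold enrichment at the highest peak was reached by 19 of the 73 genes (26.0%, 95% interval 17.3 to 37.1%), against 18.9%, inside that interval. Over peaks, 26 of the 180 reached it (14.4%, 10.1 to 20.3%), against 9.37%, a value below the interval. The interval over peaks takes each peak as separate, although these peaks lay in 19 genes, so it is too narrow. Width and fold went together: the median fold was 10.1 in the 27 wide peaks and 5.34 in the narrower ones, and in other genes 8.30 and 5.47.

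**Figure D2:**
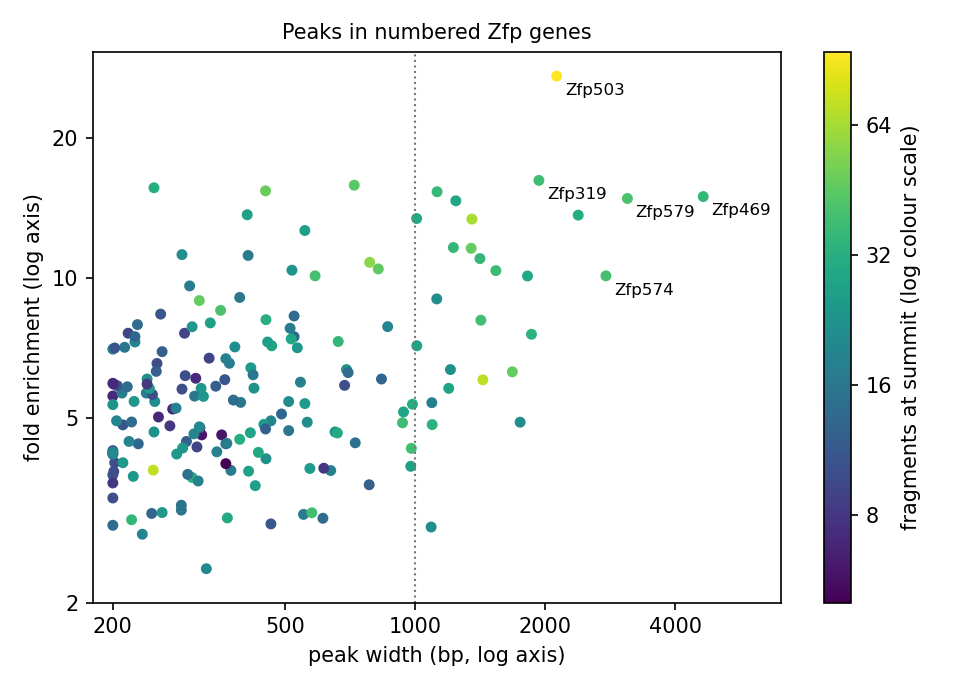
The 180 peaks in numbered Zfp genes by width (horizontal log axis, bp) and fold enrichment (vertical log axis), coloured by the fragment number at the summit, with a dotted line at 1000 bp. The peak of Zfp503 at 27.1-fold and those of Zfp469, Zfp579, Zfp574 and Zfp319 stand at the wide end.

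Zfp503 (NCBI gene 218820), a transcriptional repressor of the NET family with roles in the developing brain and limb, stood highest. Its peak at chr14:21984573-21986696, 2124 bp wide and centred at 80.6% of the span, had a fold enrichment of 27.1 (95% interval 22.0 to 33.1) on 95 fragments over a background of 2.54. A second peak at 33.1% of the span stood at 15.8 (11.6 to 21.1) on 44 fragments. The interval of the first peak lay above the fold enrichment of every other gene of the set, and overlapped only the upper end of the interval of Zfp319.

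Next were 9 genes whose intervals overlapped each other, between 12.6-fold and 16.2-fold. Zfp319 (NCBI gene 79233) stood at 16.2 (11.6 to 22.1) with a peak of 1933 bp, at chr8:95327980-95329912. Zfp523 (NCBI gene 224656) stood at 15.6 (10.8 to 21.9) with a narrow peak of 249 bp near the end of the gene, chr17:28202954-28203202. Of its 5 peaks, the one closest to the start, shown above in sequence, was among the lower ones. Zfp362 (NCBI gene 230761), related to the nuclear matrix factor Zfp384, stood at 15.4 (11.4 to 20.3) on 48 fragments, and a peak of 1353 bp in the same gene reached 13.4. Zfp142 stood at 15.3 (10.8 to 21.0), Zfp358 at 14.6 (9.96 to 20.8), Zfp408 at 13.4 (9.18 to 18.9) and Zfp407 at 12.6 (8.41 to 18.3). Zfp469 and Zfp579, described above, complete the 10 highest. Of these 10 genes, Zfp407, Zfp408 and Zfp579 had a single peak.

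**Figure D3:**
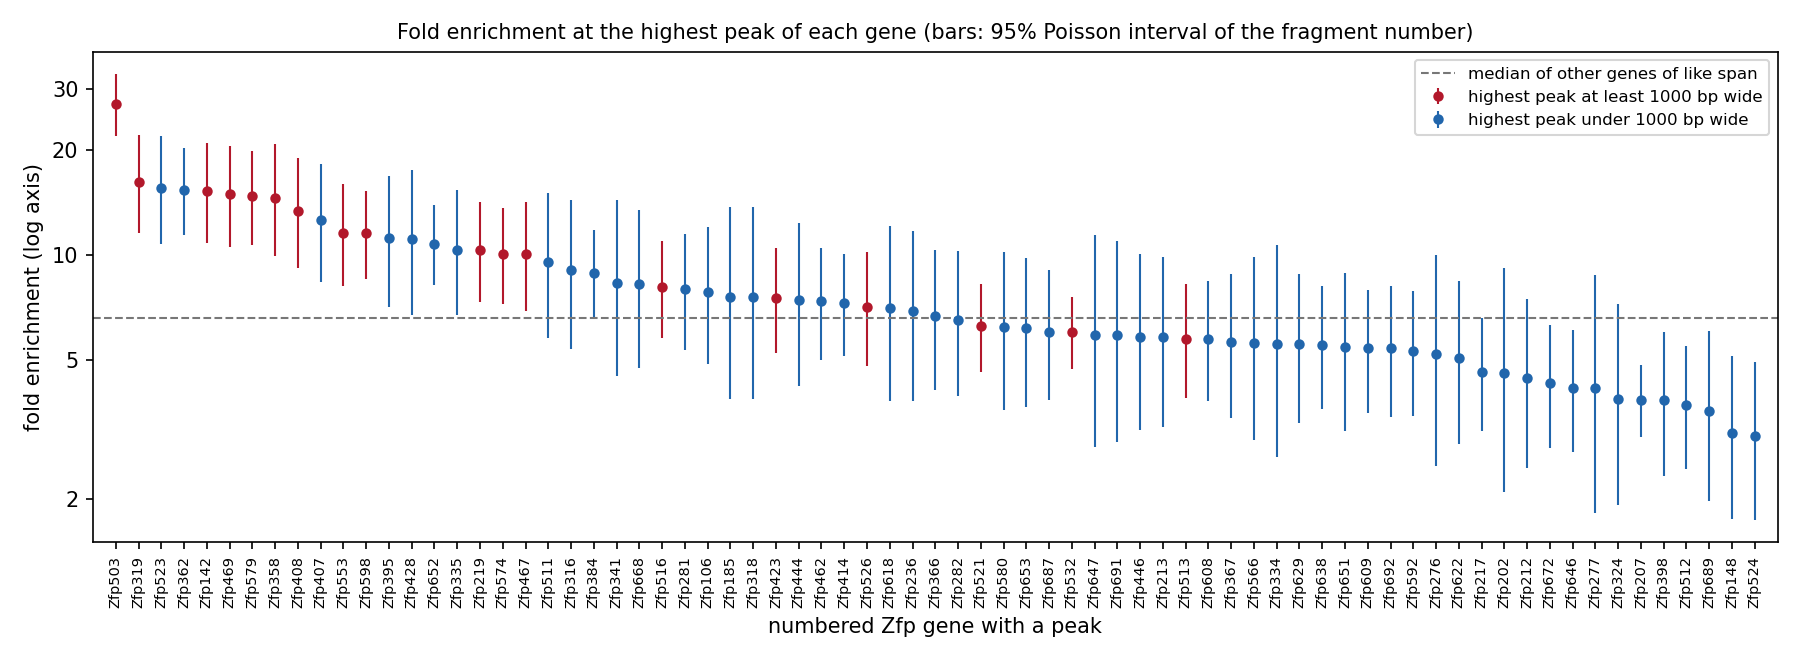
Fold enrichment at the highest peak (vertical log axis) of each of the 73 numbered Zfp genes with a peak, in falling order, with 95% Poisson intervals of the fragment number, coloured by whether that peak was at least 1000 bp wide. The dashed line is the median of other genes of like span, 6.60, and Zfp503 stands apart at 27.1.

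At the low end Zfp524 stood at 3.04 (95% interval 1.75 to 4.96) and Zfp148 at 3.11 (1.76 to 5.16). The fewest fragments, 5, were those of Zfp277 at 4.17-fold (1.82 to 8.81). Zfp207 showed the reverse, with a fold enrichment of 3.85 (3.03 to 4.84) on 72 fragments, since its background of 17.9 fragments was the highest of the set. The low folds of these genes thus rested on very different depths.

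The highest peaks lay mostly in the later part of the genes. For the 55 genes with a peak and a known strand, the median position was 69.5% of the span from start to end (interquartile range 41.5 to 82.8%), against 64.7% (27.1 to 87.7%) in other genes of like span. The last 20% of the span held 21 of the 55 (38.2%, 95% interval 26.5 to 51.4%), against 35.5%, and the 20% before it held 13 (23.6%, 14.4 to 36.3%), against 17.6%. The first 20% held 7 (12.7%, 6.30 to 24.02%), against 21.5%. Within 1000 bp of the start lay 6 (10.9%, 5.10 to 21.8%), against 15.9%. All these intervals held the value of other genes. Among genes with the highest peak near the start were Zfp334 at 1.42% and Zfp318 at 1.47% of the span, the latter on 9 fragments at the lowest background of the list.

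The genes were also grouped by known role, from lists of 26 genes in all. The lists were chosen with earlier results of these data known, so their shares describe the listed genes only. Of 9 developmental regulators, with a median span of 95.6 kb, 6 held a peak (66.7%, 95% interval 35.4 to 87.9%), against 29.1% of all protein-coding genes and 38.5% of others of like span, a value inside that interval. Besides Zfp503 and Zfp335 these were Zfp423, a partner of EBF and Smad factors that marks fat precursors, at 7.55 (95% interval 5.27 to 10.5), its close relative Zfp521 at 6.27 (4.64 to 8.30), Zfp516 at 8.10 (5.82 to 11) and Zfp462, a chromatin factor, at 7.38 (5.02 to 10.5). The median width of the highest peak in these 6 genes was 1549 bp, and Zfp423 and Zfp521 had peaks of 1858 and 1678 bp. Zfp365, Zfp536, a repressor of neuronal differentiation, and Zfp568, a KRAB protein that represses Igf2, held none, although Zfp536 had the longest span of all 190 genes, 456 kb.

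Of 6 broadly expressed DNA-binding factors, 5 held a peak (83.3%, 95% interval 43.6 to 97.0%), against 33.2% of others of like span. Zfp219, a Sox9 cofactor, stood at 10.4 (95% interval 7.37 to 14.2), Zfp384 at 8.93 (6.61 to 11.8), Zfp281, a regulator of pluripotency genes, at 7.99 (5.36 to 11.5) and Zfp217, an oncogene in human tumours, at 4.64 (3.14 to 6.63). Zfp148 is given above, and Zfp143 held none. Of 5 genes that act on RNA or splicing, Zfp106 stood at 7.84 (4.88 to 12.03), Zfp318 at 7.59 (3.88 to 13.7) and Zfp638 at 5.55 (3.64 to 8.15), beside Zfp207, and Zfp326 held none, which makes 4 of 5 (80%, 37.6 to 96.4%) against 35.3%. All 3 partners of the chromatin reader Zmynd8 held peaks (95% interval 43.9 to 100%, against 35.9% of others of like span), 10 in total, with Zfp532 at 6.03 (4.73 to 7.58), Zfp592 at 5.33 (3.46 to 7.89) and Zfp687 at 6.05 (3.85 to 9.11). In Zfp687 the 5 peaks formed a single run of 3.70 kb. Of the 3 genes of genome upkeep and imprinting, the SUMO ligase Zfp451, the imprinting regulator Zfp445 and the methyltransferase partner Zfp644, 0 held a peak, against 35.5% of others of like span. With 3 genes the interval reaches 56.1%.

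Other members with peaks act outside transcription. Zfp598, the ubiquitin ligase that senses collided ribosomes, held 3 peaks with a highest of 11.6-fold (95% interval 8.56 to 15.3) over 1348 bp. Zfp622, a ribosome assembly factor, held 1 peak at 5.09 (2.88 to 8.44), and Zfp185 held 1 at 7.59 (3.88 to 13.7) on 9 fragments. These 3 genes were named after their values were seen.

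Members in dense clusters of Zfp genes rarely held a peak. With a neighbour defined as any protein-coding gene named Zfp and a number within 250 kb, 85 genes had no neighbour and 42 of them held a peak (49.4%, 95% interval 39.0 to 59.8%). Of the 47 with 1 or 2 neighbours, 16 did (34.0%, 22.2 to 48.3%), and of the 58 with 3 or more, 15 did (25.9%, 16.3 to 38.4%). Genes of like span stood at 32.9%, 29.5% and 29.4% for these 3 groups. Of the 22 with 8 or more neighbours, 1 did, Zfp566 on chromosome 7 (4.55%, 0.807 to 21.8%), while of the 36 with 3 to 7, 14 did (38.9%, 24.8 to 55.1%). The neighbour counts were defined after the peaks were seen, and cluster members with other names were not counted. Span went with this grouping, as the median was 25.9 kb without neighbours and 15.0 kb with 3 or more. Among genes above the median span of the set, 29 of 54 without neighbours held a peak and 3 of 21 with 3 or more. Others of like span stood at 36.0% and 30.6%. Among those at or below it, 13 of 31 and 12 of 37 did, against 27.6% and 28.7%.

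By chromosome, the largest group was the 51 genes on chromosome 7, of which 17 held a peak (33.3%, 95% interval 22.0 to 47.0%). On chromosome 13, 2 of 17 did (11.8%, 3.29 to 34.3%), Zfp366 and Zfp367, and the clustered genes Zfp455 to Zfp459, Zfp429 and Zfp595 there held none. On chromosome 18, where the median span was 105 kb, 6 of 9 did (66.7%, 35.4 to 87.9%). Chromosome 8, with a median span of 12.4 kb, had 5 of 8 (62.5%, 30.6 to 86.3%). Others of like span stood at 28.8% for chromosome 7, 31.4% for 13, 41.1% for 18 and 32.3% for 8. Each value fell inside the range given for its chromosome, so none of these shares stood apart from genes of like span. The 5 genes with peaks on chromosome 8 had a median fold enrichment of 14.6 at the highest peak. How reads that match several near-identical copies were treated was not given in the sources used here.

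The share differed along the numbering, against 30.3 to 31.9% of others of like span. It was 14.8% (4 of 27, 95% interval 5.92 to 32.5%) for names in Zfp1xx and 42.3% (11 of 26, 25.5 to 61.1%) in Zfp2xx. In Zfp3xx it was 50% (14 of 28, 32.6 to 67.4%) and in Zfp4xx 30.3% (10 of 33, 17.4 to 47.3%). In Zfp5xx it was 53.1% (17 of 32, 36.4 to 69.1%) and in Zfp6xx 38.6% (17 of 44, 25.7 to 53.4%). Only the intervals of Zfp3xx and Zfp5xx lay above the value of others, and the rest held it. Outside the set, 8 of 50 Zfp genes with a number of 1 or 2 digits held a peak (16%, 8.34 to 28.5%), against 30.1%. Of those with a higher number, 19 of 127 did (15.0%, 9.79 to 22.2%), against 31.5%. Over all 367 genes named Zfp and a number the share was 27.2%, below the 31.2% of other genes of like span, so the direction of the comparison depended on where the numbering was drawn. At the edges of the set Zfp101, Zfp105 and Zfp697 held no peak and Zfp692 held 2, while just outside it Zfp94 and Zfp97 held none and Zfp703 and Zfp704 held 4 and 8.

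**Figure D4:**
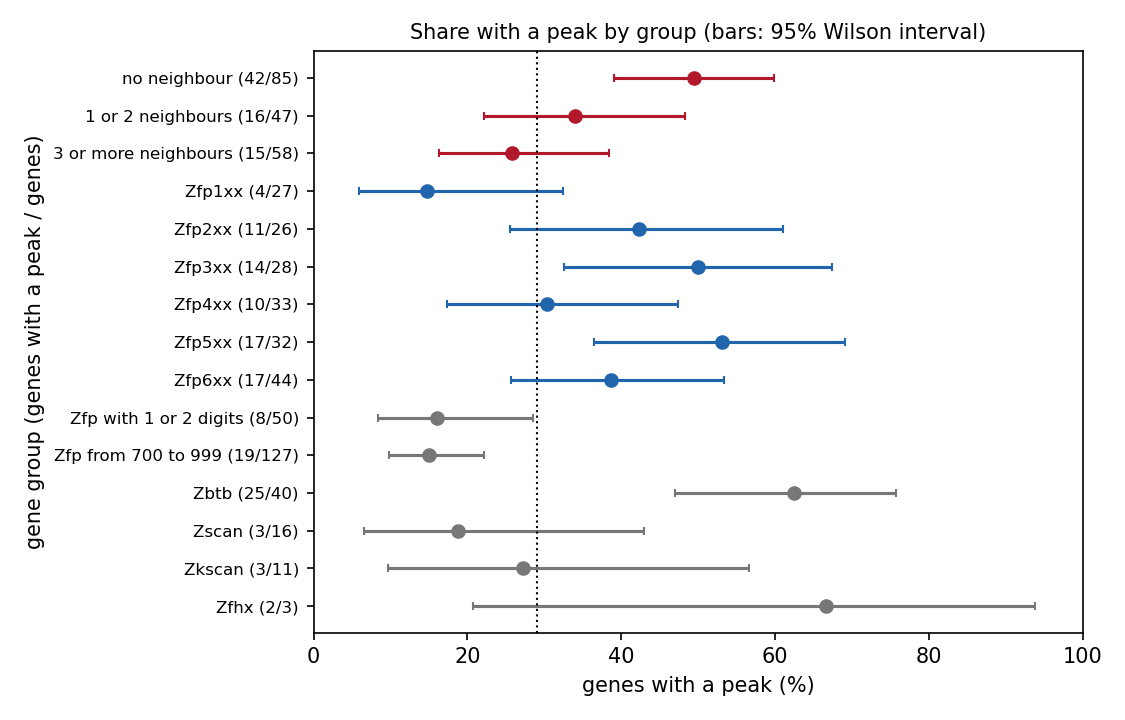
Share of genes with a peak (horizontal axis, percent, with 95% Wilson intervals) for the 190 genes by number of Zfp neighbours and by the first digit of the number, and for other zinc finger gene groups. The dotted line is the 29.1% of all protein-coding genes, and the intervals of the genes without neighbours, Zfp3xx, Zfp5xx and Zbtb lie wholly above it, while those of Zfp genes with 1 or 2 digits and above the set lie wholly below.

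Among zinc finger families with other names, Zbtb genes join fingers to a BTB dimerisation domain. Of these, 25 of 40 held a peak (62.5%, 95% interval 47.0 to 75.8%), against 30.4% of others of like span. Of the SCAN domain families, 3 of 16 Zscan genes did (18.8%, 6.59 to 43.0%), against 28.7%. So did 3 of 11 Zkscan genes (27.3%, 9.75 to 56.6%), which also carry KRAB domains, against 28.8%. The 3 Zfhx genes, which combine fingers with homeodomains, had 2 with a peak (20.8 to 93.9%, against 42.0%) and 22 peaks in all. All but the Zbtb interval held the value of others.

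Of 26 genes of the pathway through which KRAB proteins silence chromatin, 15 held a peak (57.7%, 95% interval 38.9 to 74.5%), against 34.6% of others of like span, with 73 peaks in total and a median fold enrichment of 8.39 at the highest peak. With a fold enrichment of at least the list median the number was 9, which cannot be set against the 34.6%, a value without that filter. The share of others was not calculated for this list under the filter. Other genes weighted to the Zfp spans fell from 31.0% to 20.7% under it. Their median span was 36.5 kb, against 17.7 kb for the Zfp genes. This list too was chosen with earlier results of these data known, so its share describes the listed genes only. The highest were the remodelling ATPase Chd4 at 13.5 (10.2 to 17.6) with 11 peaks, the maintenance DNA methyltransferase Dnmt1 at 13.5 (9.18 to 19.2), the NuRD subunit Gatad2a at 12.5 (9.01 to 17.0), the de novo methyltransferase Dnmt3a at 11.3 (7.96 to 15.6) and the Setdb1 cofactor Atf7ip at 10.4 (8.37 to 12.8). Trim28 itself held 4 peaks with a highest of 6.17 (4.70 to 7.96), and Setdb1 held 2 with a highest of 4.99 (3.37 to 7.13). The heterochromatin protein gene Cbx1 held 1 peak and Cbx3 and Cbx5 none, and the HUSH complex genes Tasor, Mphosph8 and Pphln1 held none.

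The base content of the promoter windows differed between genes with and without a peak. The 55 Zfp genes with a peak had a median GC content of 63.3% and 22 CpG dinucleotides in the window, and the 98 without one had 55.5% and 15. The values of other protein-coding genes were 64% and 23 with a peak and 54% and 8 without. For genes with several windows the highest value was taken.

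Summits shared with another protein-coding gene were counted in no gene. Of the 7 in the set, 3 lay in Zfp628 and Nat14 on chromosome 7, at 15.6, 12.8 and 7.02-fold, and Zfp628 held no other peak. Had these been counted, 74 of the 190 genes would have held a peak (38.9%), against 32.6% of other genes of like span under the same count. The others lay in Zfp276 and Fanca, in Zfp687 and Pi4kb, and in Zfp219 and Tmem253, at 3.84 to 5.65-fold.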

How the data were processed

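Values came from 1 deposited peak list in narrowPeak layout, made by the authors from 1 immunoprecipitation and 1 input library. Per the submitters' processing notes, HISAT2 2.2.1, MACS3 3.0.0a7 and the mm10 build were named, with no settings. The fold enrichment (a ratio of summit signal over background), −log10 p-value, −log10 q-value and score of each peak were deposited by the authors, and their values are used only to describe and filter peaks.

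From these, the whole fragment number at each summit and its background were recovered (pseudocount 1), matching the p-value within 1e-04 for 21192 of 21192 peaks. Recovery and weighting were tested on simulated data. Intervals are 95% (exact Poisson or Wilson) and cover counting error only. PCR copies were not told apart, and library totals were not used here. Genes of like span are the other protein-coding genes, weighted to the Zfp genes over 10 classes of equal gene number. Summits are 1-based GRCm38 positions, and strand came from the RefSeq promoter table.

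The genes named were the 10 with most peaks, the 10 highest folds, the 5 widest peaks, the role lists and the 5 highest folds of the corepressor list. Others were named after their values were seen. Members and lists were chosen with earlier results of these data known. Finger and KRAB counts from proteins, planned, were not made, as no protein sequences were used here. Alternatives were a −log10 q minimum, a fold minimum, a width limit, shared summits, overlap in place of summit, other span classes and all Zfp numbers. Python 3.11.15, pandas 2.3.3 and scipy 1.17.1 were used.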

Additional observations from a re-analysis of the deposited data

How the results depend on the processing

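In peaks with a −log10 q of 10 or more, Zfp genes with a peak made up 20% (other genes of like span 17.5%), the median peaks per gene 1, the median width 708.5 bp, the median fold enrichment 8.31 over peaks and 9.84 at the highest peak, and 52.6% of genes with a peak held one of at least 1000 bp. With a fold enrichment of at least the list median, 5.58, these were 26.8% (20.7%), 1, 437.5 bp, 7.42 and 7.99. A width limit of 631 bp gave a median width of 308.5 bp, 5.78-fold at the highest peak and 29.4% for other genes. All these filters remove peaks by construction. Summits counted in each of several genes gave 32.6% for other genes, and all genes named Zfp and a number gave a share of 27.2%, where the cause was not tested. The corepressor genes with a peak fell from 15 to 9 under the fold filter. The other summary values, under the alternatives run, moved by less than their interval. Of 31 named genes with a peak, the width limit removed 6 and moved 7, all downward, while the q and fold filters removed 5 and 6. No paired analysis was possible because each group had 1 library.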
